A study of Mus musculus with 8 samples.

Results

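The genes described here are 10 immediate early response genes, chosen by symbol from the 54532 genes in the table of RNA levels: *Fos*, *Fosb*, *Jun*, *Junb*, *Egr1*, *Atf3*, *Ier2*, *Ier3*, *Dusp1* and *Zfp36*. They were named by symbol and not by a cut on a measured value, though with earlier results of these data known. Immediate early genes are transcribed soon after a cell receives a growth factor, stress or injury signal, without prior protein synthesis, and their short-lived mRNAs and proteins fade quickly. Fos and Jun family proteins pair to form the transcription factor AP-1, Egr1 and Atf3 are further inducible transcription regulators, and Dusp1 and Zfp36 switch the response off by dephosphorylating MAP kinases and by destabilizing AU-rich mRNAs. In dissected tissue these genes are also known to respond to handling of the tissue before RNA is purified, so that they report on each testis as well as on a genotype.

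Bulk RNA-seq libraries were made from the whole testis tissue of 8 mice, 4 of them controls (*Sync-Spdya* fl/fl) and 4 of them knockouts (*Sync-Spdya* cKO), and each mouse gave 1 library. All of them carried *Spdya* fl/fl, in which loxP sites flank an exon of *Spdya*, and only the cKO mice also carried *Ddx4-Cre*ERT2, a germ cell Cre that tamoxifen activates, so that the controls lack Cre. Mice of both groups received an inhibitor of retinoic acid (RA) synthesis as pups, then RA to start spermatogenesis in synchrony, and then tamoxifen, at RA7.5 and RA8.5 per the labels, and the testes were collected at RA11.5, when the germ cells are in mid-late pachynema. Values are FPKM, fragments per kilobase of gene length relative to a scaled library size, and a whole testis holds somatic and germ cells, so that fewer cells of a type and less RNA per cell cannot be told apart.

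Between 13978342 and 19583091 fragments were recovered per library. *Spdya* itself had 19.7 to 23.8 FPKM in the controls and 17.7 to 30.5 FPKM in the cKO libraries. Its value covers the whole gene and not the deleted exon alone, and it did not separate the groups (limma adjusted p = 0.787). Control replicate 1 stood apart from the other 7 libraries: mitochondrial genes took 0.464% of its fragments, against 2.20% to 3.74% elsewhere. Where counts of genes at an unadjusted p below 0.05, or with ranges apart, changed without that library, they are also given without it.

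Stimulated transcription of these genes runs through a small set of short promoter elements, the CArG box bound by SRF, the CRE bound by CREB and ATF proteins, and the site bound by Egr proteins. RefSeq gave 250 bases upstream of the start of 8 of the 10 genes on GRCm38.p6, and *Ier2* and *Egr1* had no entry. The core TGACG of the CRE was found, on either strand, in 5 of these 8 promoters and in 17.8% of all 32851 RefSeq promoters of this length. The Egr letters GCGNGGGCG were found in 2 of 8 (4.7% of all promoters), the CArG box in 1 of 8 (1.47%), the TATA box letters TATAAA on the sense strand in 1 of 8 (7.59%) and the AP-1 site TGANTCA in 0 of 8 (6.75%). Sequences of 4 of them follow, chosen because they hold the most matches or the only CArG box, read 5′ to 3′ on the strand of the gene with the matches in capitals.
*Fos*, chr12:85473640-85473889, plus strand: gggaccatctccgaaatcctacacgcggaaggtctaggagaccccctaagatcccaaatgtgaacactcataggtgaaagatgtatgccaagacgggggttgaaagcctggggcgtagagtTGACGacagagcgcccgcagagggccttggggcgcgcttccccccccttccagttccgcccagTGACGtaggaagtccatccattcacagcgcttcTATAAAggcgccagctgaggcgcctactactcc
*Fosb*, chr7:19310046-19310295, minus strand: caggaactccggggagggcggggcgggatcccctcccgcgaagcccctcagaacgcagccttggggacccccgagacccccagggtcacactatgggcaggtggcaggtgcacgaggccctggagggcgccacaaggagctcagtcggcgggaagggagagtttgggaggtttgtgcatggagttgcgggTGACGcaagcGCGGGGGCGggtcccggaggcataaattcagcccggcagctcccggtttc
*Dusp1*, chr17:26508473-26508722, minus strand: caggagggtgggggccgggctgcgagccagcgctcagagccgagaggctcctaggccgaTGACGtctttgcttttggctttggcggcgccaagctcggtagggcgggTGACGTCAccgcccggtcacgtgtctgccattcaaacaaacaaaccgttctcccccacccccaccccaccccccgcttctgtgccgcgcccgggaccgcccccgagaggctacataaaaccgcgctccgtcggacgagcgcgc
*Zfp36*, chr7:28379229-28379478, minus strand: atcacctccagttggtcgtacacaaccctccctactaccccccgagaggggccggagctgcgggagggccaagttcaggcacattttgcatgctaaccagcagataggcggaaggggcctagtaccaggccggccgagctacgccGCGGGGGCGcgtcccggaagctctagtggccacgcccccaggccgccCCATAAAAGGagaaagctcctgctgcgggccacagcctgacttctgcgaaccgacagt
Positions are counted back from the start site to the leftmost letter of a match. In *Fos* the capitals mark TGACG at -129 and -66 and TATAAA at -33. In *Fosb* they mark TGACG at -60 and the Egr letters at -50. In *Dusp1* they mark TGACG at -191 and an 8-base palindrome made of 2 overlapping cores, 1 on each strand, at -143 and -140. In *Zfp36* they mark the Egr letters at -105 and the CArG box at -58. *Atf3* had TGACG at -7 and *Junb* at -106, and none of the letters were found upstream of *Jun* and *Ier3*. For *Fosb*, *Dusp1*, *Zfp36*, *Atf3* and *Ier3* the RefSeq start lies inside the gene span given with the expression values, so that the upstream letters overlap it in part or in full. A match is a run of letters and not a measured binding site. Sequence beyond these 250 bases was not searched, so that a gene without a match here may hold one elsewhere.

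All 10 genes were expressed at a mean above 1 FPKM in both groups and so entered the test, limma on log2(FPKM + 0.1) over 12141 protein-coding genes. Per length of gene, *Fos* had the highest mean over the 8 libraries, 49.5 FPKM, followed by *Jun* at 48.1, *Ier2* at 46.3, *Egr1* at 34.3, *Junb* at 29.6, *Zfp36* at 13.8, *Fosb* at 8.65, *Dusp1* at 8.47, *Atf3* at 7.28 and *Ier3* at 3.85 FPKM. Only *Junb* and *Zfp36* were separated as neighbours in this order by their ranges (lowest *Junb* 24.8 FPKM, highest *Zfp36* 17.2 FPKM). *Zfp36* was above *Fosb*, and *Atf3* above *Ier3*, within each of the 8 libraries, although their ranges overlapped across libraries. Over the other 7 libraries, leaving out control replicate 1, the mean of *Ier2* was 34.8 FPKM, below *Egr1* at 35.1, and that of *Fosb* was 7.6, below *Dusp1* at 8.28, so that both places in the order rest on that library. The mean level of *Fos* was above that of 92.8% of the genes tested and that of *Ier3* above 22.5%.

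None of the 10 genes was called different between the groups, which required a Benjamini-Hochberg adjusted p below 0.05 and a log2 fold change beyond 1 in either direction. The same thresholds called 2 of the 12141 genes, or 0.0165%. *Fosb* alone had an unadjusted p below 0.05, that is 1 of 10 genes, where 10.9% of all genes tested had one. The other tool run, limma voom on the recovered fragments, also called 0 of the 10 and gave *Fosb* alone an unadjusted p below 0.05. The log2 fold change was negative in 6 of the 10 genes and positive in 4, with a median of -0.10 beside 0.0097 over all genes tested. In no gene were the ranges of the 2 groups apart (0 of 10), where 6.24% of all genes tested had groups that did not overlap. With control replicate 1 left out the ranges were apart for 2 of the 10, *Junb* and *Dusp1*, against 13.3% of all genes tested.

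**Figure D1:**
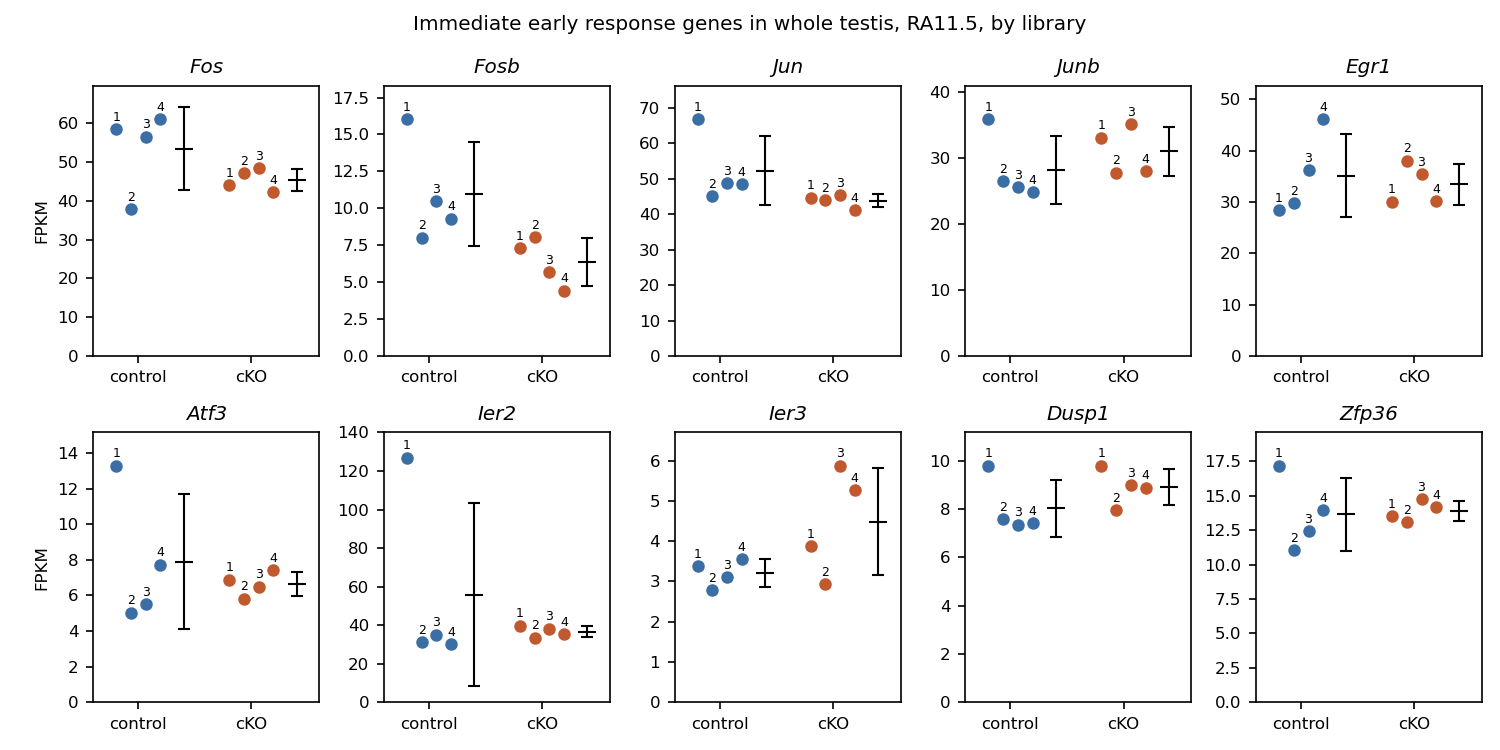
FPKM (vertical axis, from 0) of each gene in the 4 control libraries (blue) and the 4 cKO libraries (orange), numbered by replicate, with the mean and SD of each group in black. Control replicate 1 was the highest of 8 libraries for *Fosb*, *Jun*, *Junb*, *Atf3*, *Ier2* and *Zfp36*, and no gene had groups whose ranges were apart.

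Of the AP-1 subunits, *Fosb* (ENSMUSG00000003545, chromosome 7, 19302696 to 19310051 on GRCm38) differed most between the groups. *Fosb* had 16.0, 8.004, 10.5 and 9.30 FPKM in control replicates 1 to 4. In cKO replicates 1 to 4 it had 7.31, 8.035, 5.65 and 4.41 FPKM. The groups met at one point, since the highest cKO library was just above the lowest control library. The mean was 10.9 ± 3.54 FPKM in controls and 6.35 ± 1.63 FPKM in cKO testes (SD, n = 4). The log2 fold change was -0.76 with a standard error (SE) of 0.24 (limma unadjusted p = 0.0093, adjusted p = 0.287), a ratio of 0.589 with a 95% confidence interval of 0.408 to 0.850. The exact permutation test over the 70 assignments of the libraries gave a two-sided p = 0.0571, and the smallest p it can give is 0.0286. Without control replicate 1, the highest library, the log2 fold change was -0.56 (limma unadjusted p = 0.0157, adjusted p = 0.215).

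*Fos* (ENSMUSG00000021250, chromosome 12, 85473890 to 85477273), the subunit that pairs with Jun proteins and is the classic marker of recent stimulation, had 58.5, 37.8, 56.5 and 61.0 FPKM in the control libraries. Its cKO libraries had 44.1, 47.2, 48.4 and 42.1 FPKM. All 4 cKO values lay between the lowest control and the other 3 controls. Between the groups the log2 fold change was -0.21 (SE 0.15, limma adjusted p = 0.675). Without control replicate 2, the low control, it was -0.37 (limma unadjusted p = 0.0067). That library was singled out after its value was seen, and the lowest adjusted p among the 10 genes without it was 0.289.

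*Jun* (ENSMUSG00000052684, chromosome 4, 95049034 to 95052222), the founding member of the Jun family, had 66.9, 45.2, 48.8 and 48.5 FPKM in controls. The cKO libraries had 44.7, 44.0, 45.4 and 41.1 FPKM. In *Jun* 3 of 4 cKO values were under every control value, and the controls were set apart by replicate 1. Its log2 fold change was -0.24 (SE 0.13, limma adjusted p = 0.558), and it moved to -0.12 without control replicate 1.

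*Junb* (ENSMUSG00000052837, chromosome 8, 84974484 to 84978718), which competes with Jun in AP-1 pairs, had 35.9, 26.5, 25.6 and 24.8 FPKM in controls. It had 33.1, 27.8, 35.2 and 28.0 FPKM in cKO testes. Here control replicate 1 was at the top and the other 3 controls were below every cKO library. The difference on the log2 scale was 0.15 (SE 0.14, limma adjusted p = 0.769). Without control replicate 1 it was 0.27 (limma unadjusted p = 0.0289, adjusted p = 0.262). That library was singled out in part by its *Junb* level, after the values were seen. *Junb* shares 173 exonic bases with *Prdx2* on the opposite strand, at 36.1 to 54.0 FPKM, and *Jun* shares 232 with the antisense gene *Junos*, at 0.429 to 0.943 FPKM. Whether strand was used in counting is not given in the sources used here, so that reads of *Junb* and *Prdx2* in that stretch may be mixed.

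Among the other transcription regulators, *Egr1* (ENSMUSG00000038418), a zinc finger factor induced by growth factors through ERK and SRF, had 28.4, 29.7, 36.2 and 46.1 FPKM in controls. The cKO libraries had 30.04, 38.1, 35.4 and 30.2 FPKM. The cKO values lay inside the control range, and control replicate 1 was the lowest of all 8 libraries. On the log2 scale cKO minus control was -0.05 (SE 0.16, limma adjusted p = 0.935), and its sign turned to 0.09 without control replicate 4 and to 0.03 after rescaling to TPM.

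*Atf3* (ENSMUSG00000026628, chromosome 1, 191170296 to 191218039), a stress-induced member of the ATF/CREB family, had 13.3, 5.04, 5.52 and 7.73 FPKM in controls. Its cKO libraries had 6.90, 5.81, 6.497 and 7.44 FPKM. Control replicate 1 was 2.18 times the mean of the other 3 controls, and the cKO values all lay within the range of those 3. Its log2 fold change was -0.14 (SE 0.26, limma adjusted p = 0.885) and had the opposite sign, 0.14, without control replicate 1.

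*Ier2* (ENSMUSG00000053560, chromosome 8, 84661331 to 84662852), a nuclear protein of the immediate early response family, had 127, 31.4, 35.1 and 30.2 FPKM in controls. The cKO libraries had 39.7, 33.6, 38.2 and 35.4 FPKM. The other 7 libraries lay between 30.2 and 39.7 FPKM and control replicate 1 was 3.94 times the mean of the other 3 controls, with 2533 fragments behind its value. The log2 fold change was -0.31 with a 95% confidence interval of -1.19 to 0.58 (limma adjusted p = 0.831). Without that library it was 0.19, with an interval of -0.02 to 0.40 (adjusted p = 0.372).

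*Ier3* (ENSMUSG00000003541, chromosome 17, 35821684 to 35822923), a regulator of cell survival and ERK signalling, was the lowest of the genes. It had 3.37, 2.78, 3.11 and 3.56 FPKM in controls. In cKO testes it had 3.88, 2.93, 5.87 and 5.26 FPKM. Of the cKO libraries, 3 were above every control and cKO replicate 2 was not. Its log2 fold change was 0.43 (SE 0.20, limma unadjusted p = 0.0627, adjusted p = 0.495). Without cKO replicate 2 it was 0.61 (limma unadjusted p = 0.0062). That library was singled out after its value was seen, and the lowest adjusted p among the 10 genes without it was 0.413. The values rest on 50 to 112 fragments per library, fewer than for any of the other 9 genes.

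The feedback inhibitors had log2 fold changes of 0.15 and 0.04. *Dusp1* (ENSMUSG00000024190, chromosome 17, 26505590 to 26508519), the phosphatase of p38, JNK and ERK, had 9.79, 7.57, 7.35 and 7.42 FPKM in controls. It had 9.79, 7.94, 8.99 and 8.89 FPKM in cKO testes. As with *Junb*, 3 controls were below every cKO library and control replicate 1 was with the highest. For *Dusp1* the difference had an SE of 0.12 (limma adjusted p = 0.708), and it was 0.25 without control replicate 1 (unadjusted p = 0.0241, adjusted p = 0.245). That library was singled out in part by its *Dusp1* level, after the values were seen.

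*Zfp36* (ENSMUSG00000044786, chromosome 7, 28376784 to 28380253), which binds AU-rich elements of short-lived mRNAs, had 17.2, 11.1, 12.4 and 13.9 FPKM in controls. It had 13.5, 13.1, 14.8 and 14.2 FPKM in cKO testes. The cKO values were bunched inside the control range. Between the groups the log2 fold change was 0.04 (SE 0.13, limma adjusted p = 0.937), with a 95% confidence interval from -0.26 to 0.34 (0.837 to 1.27 times), and its sign turned to -0.05 without control replicate 2.

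**Figure D2:**
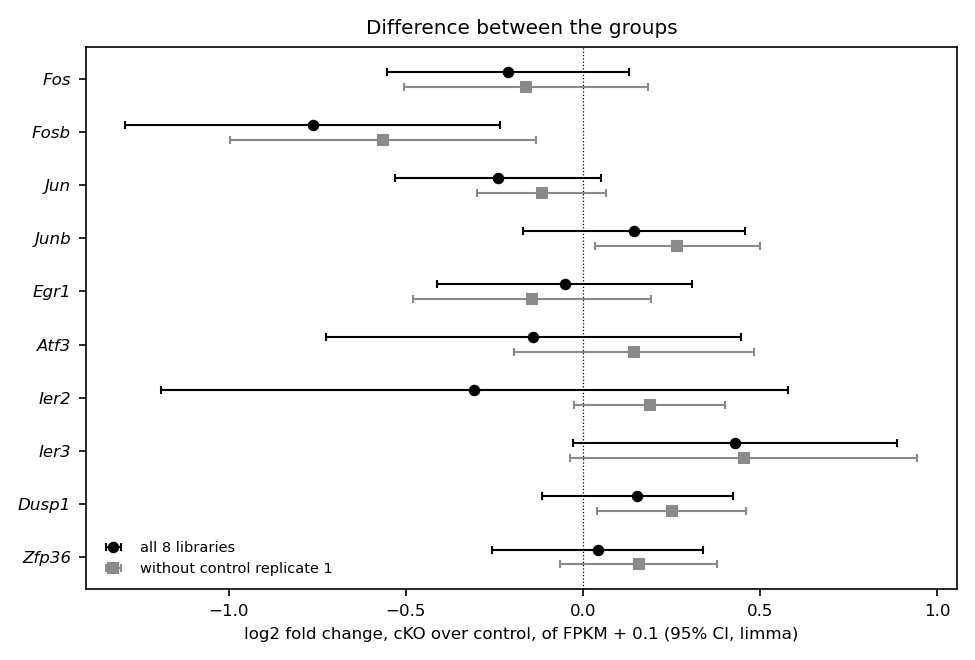
Log2 fold change of each gene, cKO over control (horizontal axis, log2 of FPKM + 0.1), with its 95% confidence interval from limma, for all 8 libraries (black) and without control replicate 1 (grey). The interval of *Fosb* stayed below 0 in both, that of *Ier2* narrowed from between -1.19 and 0.58 to between -0.02 and 0.40, and those of *Junb* and *Dusp1* lay above 0 only without that library. The library was singled out in part from these same values.

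Without control replicate 1, 3 of the 10 genes had an unadjusted p below 0.05, *Fosb* lower and *Junb* and *Dusp1* higher in the cKO libraries, where 15.6% of the genes tested in those 7 libraries had one. The lowest adjusted p among the 10 was then 0.215. That library was singled out in part by its high values of *Jun*, *Junb*, *Ier2* and *Dusp1*. The p-values without it are therefore descriptions. The median log2 fold change over the 10 genes turned from -0.10 to 0.15, while that over all genes tested was 0.03.

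Differences between single testes were examined next. Control replicate 1 was the highest of the 8 libraries for 6 of the 10 genes, against 34.2% of all genes tested. It was over 2-fold above the other controls for *Atf3* and *Ier2*, 2 of 10, against 4.6% of all genes tested. These counts are descriptions, since the library was singled out in part from the same values. Averaged over the 10 genes, log2(FPKM + 0.1) relative to each gene's mean was 0.47 in control replicate 1 and between -0.25 (control replicate 2) and 0.04 (cKO replicate 3) in the other 7 libraries. That library did not stand as far above the other controls for *Fos*, at 1.13 times the mean of the other 3 controls, *Ier3*, at 1.07 times, or *Egr1*, at 0.761 times.

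The spread between libraries of a group was measured as the SD of log2(FPKM + 0.1) pooled over both groups. *Ier2* had 0.71, more than 98.6% of the genes tested, *Atf3* 0.45 (more than 92.5%) and *Fosb* 0.41 (more than 89.1%). *Dusp1* had 0.16, *Jun* 0.18 and *Zfp36* 0.20, all below the median of 0.21 over all genes tested. The median over the 10 genes was 0.25. Without control replicate 1 it was 0.18, beside 0.16 over all genes, and the SD of *Ier2* was 0.11, that of *Atf3* 0.23 (more than 74.7% of the genes tested), that of *Fosb* 0.32 (more than 89.7%) and that of *Jun* 0.06. Counting error alone would give a median SD of 0.049, and the measured SD was 1.86 (*Ier3*) to 15.2 times (*Ier2*) the counting SD in each gene. The controls had the larger SD in 9 of the 10 genes, *Ier3* being the exception, against 81.3% of all genes tested. Without control replicate 1 they had it in 5 of 10, against 64.9%.

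**Figure D3:**
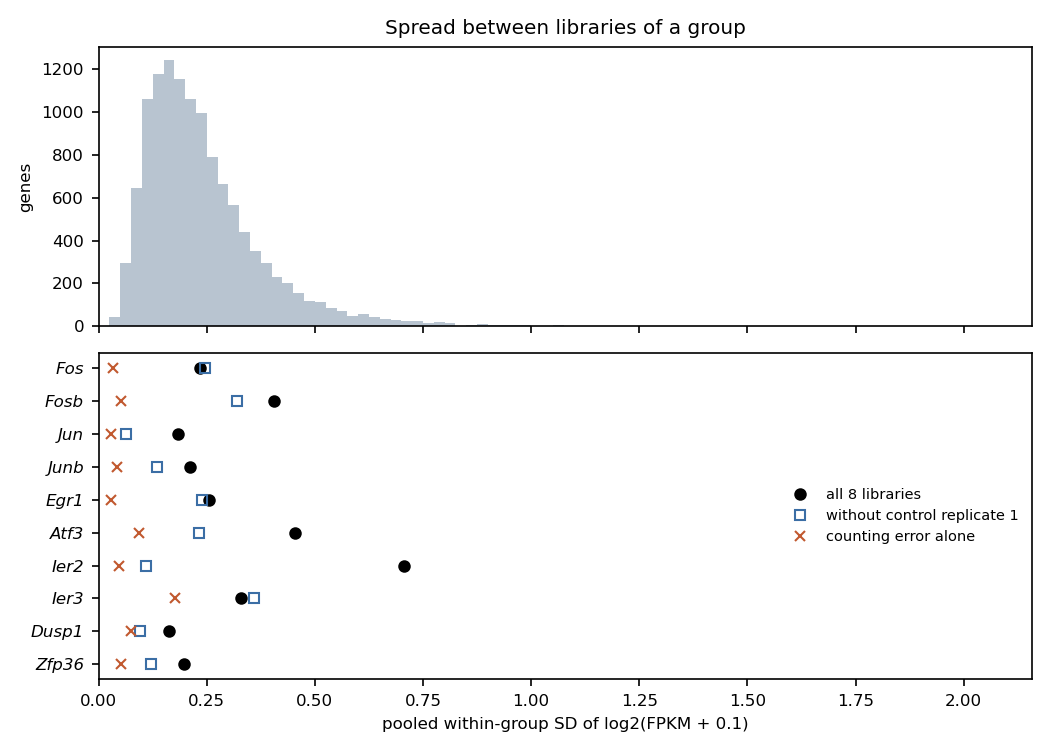
Top, the number of tested genes at each within-group SD of log2(FPKM + 0.1), pooled over the 2 groups. Below, on the same horizontal axis, that SD for each gene with all 8 libraries (black), without control replicate 1 (open squares) and as counting error alone would give it (crosses). *Ier2* moved from 0.71 to 0.11 when that library was left out, and *Fos* and *Egr1* stayed near 0.24.

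Control replicate 1 differed from the other controls by gene structure as well. Of the 371 tested genes whose annotated exons merge into 1 block, 19.9% were over 2-fold higher there than in the other controls, against 4.12% of the 11767 genes with more blocks. *Jun*, *Ier2* and *Zfp36* have 1 such block. By GC content of the longest transcript, 12.3% of the top quintile of genes (GC of 55.6% or more) were over 2-fold higher, against 1.69% to 3.87% in the other quintiles. *Fosb*, *Junb*, *Egr1* and *Ier2* are in that top quintile. By gene length the share was 11.4% in the shortest quintile and fell to 0.70% in the longest. These classes overlap: the median length was 1898 bases in genes of 1 block and 3193.5 in the top GC quintile, against 4268 in all genes tested. The part of gene structure, GC content, gene length or the low mitochondrial share in the levels of these genes was not tested.

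**Figure D4:**
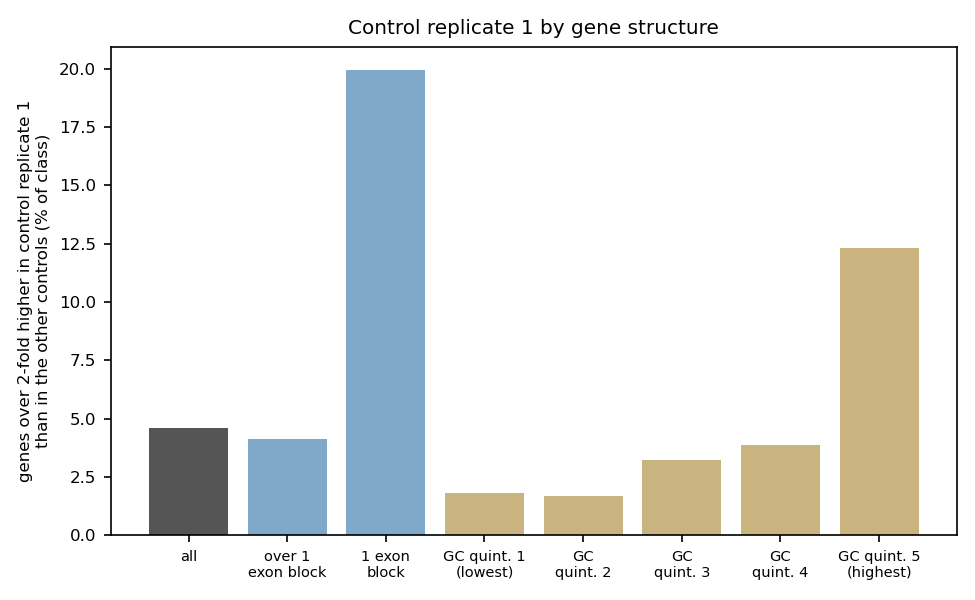
Share of tested genes over 2-fold higher in control replicate 1 than in the mean of the other 3 controls (vertical axis, percent of the class), for all genes, by number of merged exon blocks and by quintiles of transcript GC content. The share was 19.9% among genes of 1 block and 12.3% in the top GC quintile, against 4.60% of all genes.

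The pattern was traced in 40 further immediate early genes, of which 32 were expressed highly enough to be tested. None was called. Of these, 4 of 32 had an unadjusted p below 0.05, where 10.9% of all genes tested had one, and all 4 were higher in cKO testes: *Fosl2*, another AP-1 subunit, with 1.43 to 2.07 FPKM in controls and 2.10 to 3.33 in cKO testes (log2 fold change 0.47, limma adjusted p = 0.406), *Zfp36l1*, a relative of *Zfp36*, with 8.86 to 14.4 and 13.3 to 17.2 FPKM (0.38, adjusted p = 0.406), *Cyr61*, a secreted matrix protein, with 7.21 to 10.9 and 9.03 to 17.2 FPKM (0.45, adjusted p = 0.444), and *Ctgf*, which was named after its values were seen (0.56, adjusted p = 0.45). Ranges of control and cKO libraries were apart for 1 of the 32, *Fosl2*, against 6.24% of all genes tested, and for 8 of the 32 without control replicate 1, against 13.3%. The median log2 fold change was 0.07, and without control replicate 1 it was 0.21, with 10 of the 32 at an unadjusted p below 0.05, all higher in cKO testes, against 15.6% of all genes tested. Without cKO replicate 4, 0 of the 32 had one, against 5.65% of all genes tested.

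Control replicate 1 was the highest library for 15 of these 32 genes (46.9%), against 34.2% of all genes tested. It was over 2-fold above the other controls for 6 of them, against 4.6% of all genes tested. Named after their values were seen, *Jund*, another Jun family member, had 124 FPKM there and 31.7 to 51.5 FPKM in the other 7 libraries, and *Ier5* had 21.6 FPKM against 2.78 to 6.58 FPKM. *Nr4a1*, an orphan nuclear receptor induced together with *Fos* and *Egr1*, had 10.05 FPKM there, inside the 6.27 to 12.1 FPKM of the others. The 11 heat shock genes differed less in that library: they were a median of 0.24 on the log2 scale above the other controls, against 0.47 for the 10 genes described here, 0.43 for the further immediate early genes, 0.28 for 7 genes of the integrated stress response and 0.07 for all genes tested. The 22 signalling genes upstream were a median of -0.07 from the other controls, and 8 hypoxia response genes -0.02. All tested genes of 1 exon block, as *Jun*, *Ier2* and *Zfp36* are, were a median of 0.311 above the other controls. Those of the top GC quintile, which holds *Fosb*, *Junb*, *Egr1* and *Ier2*, were a median of 0.305 above.

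**Figure D5:**
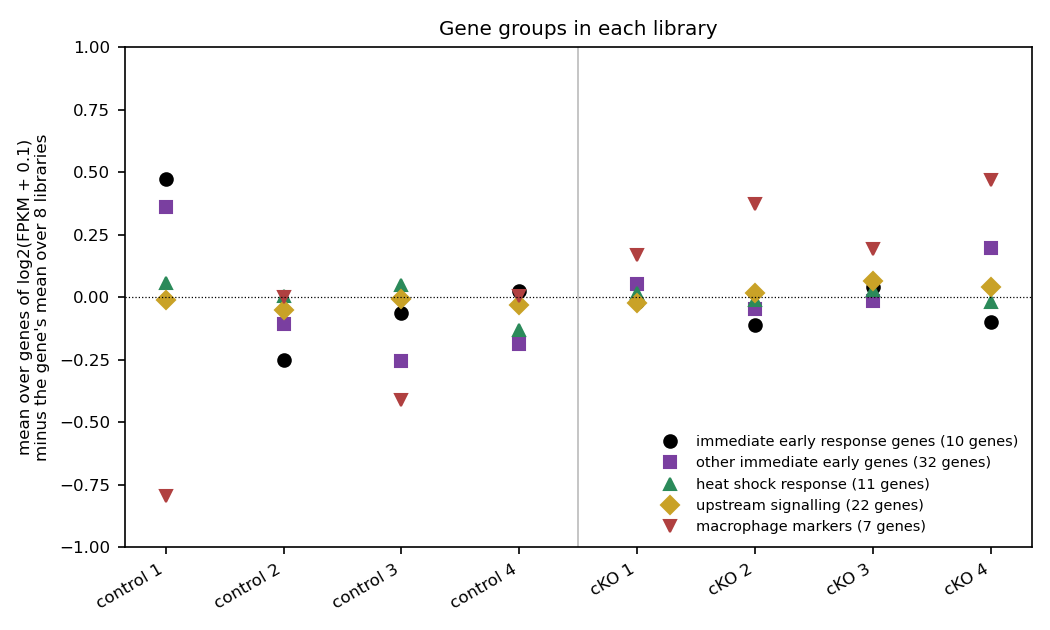
Mean over the genes of a list of log2(FPKM + 0.1) minus each gene's mean over the 8 libraries (vertical axis), in each library (horizontal axis; controls left of the grey line, cKO right). In control replicate 1 the 10 immediate early response genes stood at 0.47 and the further immediate early genes at 0.36, heat shock genes at 0.06 and signalling genes at -0.01, and macrophage markers at -0.79.

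Between the groups these lists gave 0 calls each. In the upstream signalling list 1 of 22 genes had an unadjusted p below 0.05, *Rps6ka1*, an ERK-activated S6 kinase, with 6.21 to 8.94 FPKM in controls and 9.13 to 11.4 in cKO testes (log2 fold change 0.40, limma adjusted p = 0.309). In the heat shock list *Hspb1* (0.54, adjusted p = 0.412) and *Hsph1* (-0.44, adjusted p = 0.341) had one, in opposite directions. The heat shock list had 3 of 11 and the signalling list still 1 without control replicate 1. None of the integrated stress response or hypoxia genes had one. Of all genes tested 10.9% had one, and 15.6% without control replicate 1. The medians were -0.0043 for signalling, -0.03 for heat shock, 0.09 for the integrated stress response and 0.19 for hypoxia.

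Immediate early genes are transcribed in somatic and germ cells alike. Most somatic cell markers tested were higher in cKO testes, none at an adjusted p below 0.05. Of all genes tested 10.9% had an unadjusted p below 0.05, and 15.6% without control replicate 1. The ranges of the groups were apart for 2 of 7 macrophage, 1 of 3 myoid and 1 of 10 Sertoli markers, against 6.24% of all genes tested. They overlapped for every endothelial, Leydig and blood marker tested, with and without control replicate 1. Without that library the ranges were apart for 2 of 7 macrophage, 2 of 3 myoid and 2 of 10 Sertoli markers, against 13.3% of all genes tested. All 7 macrophage markers were higher in cKO testes, 5 of them (*Csf1r*, *Lyz2*, *C1qb*, and, named after their values were seen, *C1qa* and *Mrc1*) at an unadjusted p below 0.05 and none at an adjusted one, and their summed level was 20.2 to 36.8 FPKM in controls and 40.0 to 52.7 in cKO testes. Control replicate 1 had the lowest macrophage sum, 20.2 FPKM. The sums for endothelial markers were 5.42 to 13.1 and 11.9 to 15.1 FPKM (4 of 4 tested higher, *Cdh5* and *Pecam1* at an unadjusted p below 0.05), for Leydig markers 16.5 to 37.9 and 28.6 to 46.7 FPKM (3 of 3, *Hsd3b1* and *Lhcgr*), for peritubular myoid markers 44.8 to 75.0 and 74.0 to 104 FPKM (3 of 3, *Acta2*) and for blood markers 10.8 to 39.8 and 22.0 to 46.7 FPKM (3 of 3, *Hbb-bs*). Sertoli markers summed to 1205 to 1630 and 1577 to 1825 FPKM, with 9 of 10 higher in cKO testes and 0 at an unadjusted p below 0.05. With control replicate 1 left out, 8 of 10 Sertoli markers were higher, and an unadjusted p below 0.05 was reached by 4 of 7 macrophage, 1 of 4 endothelial (*Cdh5*), 0 of 3 Leydig, 1 of 3 myoid, 0 of 3 blood and 3 of 10 Sertoli markers, all of them higher in cKO testes.

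Among germ cell markers, pachytene spermatocyte markers summed to 776 to 1165 FPKM in controls and 685 to 1082 in cKO testes, with 0 of 5 higher and *Piwil1* lower at an unadjusted p below 0.05 (adjusted p = 0.442). Spermatogonia markers summed to 169 to 226 and 217 to 225 FPKM with 5 of 6 higher, and round spermatid markers to 2.52 to 9.56 and 4.39 to 6.31 FPKM, with 1 tested and higher. In neither list did a marker reach an unadjusted p below 0.05, where 10.9% of all genes tested did. Without control replicate 1 there was 1 in each, higher in cKO testes, where 15.6% of the genes tested had one. At a mean of 1 FPKM or less were *Acrv1*, *Prm1*, *Prm2*, *Tnp1* and *Tnp2* of the round spermatid list. Also at that level were *Cyp17a1* and *Insl3* of the Leydig list, *Tagln* of the myoid list, *Flt1* of the endothelial list, *Hba-a2* and *Alas2* of the blood list and *Spag6* and *Hist1h1t* of the spermatocyte list. The part of the cell types in the levels of the immediate early genes was not tested.

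The 10 genes did not share 1 profile. Over the 8 libraries the Pearson correlation with their common mean, of which each gene is itself a part, was 0.93 for *Atf3*, 0.92 for *Ier2*, 0.90 for *Zfp36* and 0.89 for *Jun*, but 0.11 for *Ier3* and -0.18 for *Egr1*. This order rested on control replicate 1: without it, a choice made after seeing the data, the correlation was 0.84 for *Zfp36*, 0.70 for *Fos*, 0.68 for *Atf3*, 0.56 for *Ier3*, 0.53 for *Egr1*, 0.39 for *Ier2*, 0.32 for *Jun* and -0.04 for *Fosb*. Outside the 10, the genes most like that mean were *Pigm*, *Uqcrb*, *Nfkbie*, *Rab5a* and *Hccs*, with correlations of 0.96 to 0.97 over 8 libraries. Each of these 5 was highest in control replicate 1, *Uqcrb* for instance at 83.9 FPKM against 38.3 to 46.8 FPKM. Without that library the 5 most alike over 7 libraries were *Rtl4*, *Isg20l2*, *Ctcf*, *Rbmx2* and *Alg10b*, at 0.91 to 0.99, none of them among the first 5. These are descriptions over few libraries that include 1 that stands apart.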

How the data were processed

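Bulk RNA-seq of 8 whole testes, 4 per group as the labels give them, was used. Sequencing was paired-end, and the aligner, the counter and the use of strand are not given in the sources used here. The authors deposited FPKM values for 54532 genes with gene lengths. FPKM multiplied by length gave whole fragments for 100% of values above 0 (tolerance 0.02), and the library size behind FPKM was 0.938 to 1.05 times the fragments recovered, so a scaling by the authors is part of the values. The submitters' processing notes name GRCm38 and mm10, and 99.93% of the genes were in GENCODE vM21, of which 98.33% had the same start and end.

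The test was limma 3.58.1 in R 4.3.3 (eBayes with trend) on log2(FPKM + 0.1), a scale that understates changes of low genes, with no covariates, over the 12141 protein-coding genes whose mean exceeded 1 FPKM in each group, with Benjamini-Hochberg adjustment. It was tested first on simulated fragments in which 200 of 12141 genes changed by 1.5 on the log2 scale. It called 180 of the 200 at a dispersion (variation between libraries beyond counting) of 0.02, and 184 at 0.05. At a dispersion of 0.2 it called 37, so that most changes were missed there. Unchanged genes called numbered 0 at 0.02, 2 at 0.05 and 1 at 0.2. All simulated libraries shared 1 dispersion and none stood apart as control replicate 1 does. The share of such changes that would be found in these data is therefore not known. Single genes were also tested with exact permutation tests (scipy 1.17.1, two-sided). The labels do not say more of the replicates than 1 number each, and each pair differed by at least 4.61 times the sampling noise per gene. The 10 genes, the other lists (further immediate early, upstream signalling, heat shock, integrated stress, hypoxia, cell type markers) and the tests were chosen with earlier results of these data known. From other lists the text names called genes and up to 3 genes with the smallest unadjusted p below 0.05 in each direction, and the 5 genes most correlated with the mean of the 10. Alternatives were other pseudocounts, filters, scalings, array weights, a replicate block, voom on recovered fragments, eBayes with no trend and each library left out. Promoter sequences were taken from RefSeq, and figures were drawn with matplotlib 3.10.9.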

Additional observations from a re-analysis of the deposited data

Results flagged for a closer look

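Among 22 groups of 4 values examined (the 10 genes and the mitochondrial share, in each group), 5 had a library farther from its nearest neighbour than Dixon's 95% limit allows, where chance flags about 1 in 20. All 5 were control replicate 1, so they are not separate events, and the rate of 1 in 20 is no baseline for them. That library was the highest of 8 for 34.2% of all genes tested. The share of all genes that the same rule flags was not taken. In control replicate 1 the *Ier2* level was 127 FPKM against 30.2 to 35.1 FPKM in the other 3 controls. Its *Jun* level was 66.9 FPKM against 45.2 to 48.8 FPKM, its *Junb* level 35.9 FPKM against 24.8 to 26.5 FPKM and its *Dusp1* level 9.79 FPKM against 7.35 to 7.57 FPKM. Its mitochondrial share of fragments was 0.464% against 2.97% to 3.39%. No cKO library was set apart in any of the 11 measures. Whether the 4 genes and the mitochondrial share have a common source was not tested.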

How the results depend on the processing

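None of the 10 genes was called, and none had an adjusted p below 0.05, under any of the 19 alternatives. The lowest adjusted p among them was between 0.146 (array weights) and 0.799 (without cKO replicate 4). *Fosb* had an unadjusted p below 0.05 in all 19, with log2 fold changes of -0.90 to -0.56. The sign turned for 4 genes: *Egr1* to 0.042 with array weights and 0.027 after rescaling to TPM, *Atf3* to 0.14 and *Ier2* to 0.061 with array weights. With single libraries left out, *Egr1* lay between -0.14 and 0.089, *Atf3* between -0.32 and 0.14, *Ier2* between -0.50 and 0.19 and *Zfp36* between -0.052 and 0.16. The number of the 10 genes at an unadjusted p below 0.05 was 1, where 10.9% of all genes tested had one. It became 2 after rescaling to TPM (10.6% of all genes) and was 1 to 3 with single libraries left out (5.65% to 15.6%). Of the 32 further immediate early genes it was 4, and it became 9 with array weights, where 20.9% of all genes tested had one. With single libraries left out it was 0 (without cKO replicate 4, 5.65% of all genes) to 10 (without control replicate 1, 15.6%). Over all genes tested, calls numbered 2 and ranged from 0 to 57 (array weights). With the replicate block the number of the 10 genes at an unadjusted p below 0.05 was 2 (*Fosb* and *Ier3*), that of the further immediate early genes was 5, and the calls over all genes went from 2 to 0. Of all genes tested 14.6% then had an unadjusted p below 0.05, and the lowest limma adjusted p among the 10 was 0.154. Between libraries of the same number, deviations from the group means had correlations of 0.0757 to 0.406, and 5 of 8 libraries correlated best with their own number. These values do not settle whether the libraries were paired by number. The labels name no pairing, and the main test assumed none. *Ier3* had no value with the filter at 5 FPKM, which it did not pass. Depth limits *Ier3* most.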

Other observations

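The ratio of *Fos* to *Fosb*, paralogs of 1 family, was examined after their values were seen. *Fos* FPKM over *Fosb* FPKM was 3.65, 4.72, 5.40 and 6.57 in the control libraries and 6.03, 5.87, 8.56 and 9.55 in the cKO libraries. The means were 5.08 ± 1.23 and 7.502 ± 1.84 (SD, n = 4), and the groups overlapped (exact permutation test of the log2 ratio, two-sided p = 0.114).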
